A study of Mus musculus with 24 samples.

Results

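The 8 genes described here encode receptors for acetylcholine, the transmitter of the cholinergic neurons. They are the muscarinic receptors Chrm1, Chrm2, Chrm3 and Chrm4 and the nicotinic subunits Chrna4, Chrna5, Chrna7 and Chrnb2, taken by gene name from the 15456 genes of a table of normalized RNA-seq counts. The table covers 24 male BALB/C mice (BALB/c OlaHsd in the methods) at postnatal week 11, with 6 mice in each of 4 groups and 1 library of prefrontal cortex per mouse. Control mice had no treatment according to the labels and PBS by injection and gavage according to the methods. The duloxetine group had daily i.p. injections of duloxetine, a drug against depression that acts on the serotonin and noradrenaline transporters. The *R. flavefaciens* group had the live gut bacterium *Ruminococcus flavefaciens* by gavage, and the last group had both. The tissue was a needle punch of frontal cortex that holds all cell types of the region, and the mice were housed in groups. The libraries held from 12811413 to 15607343 recovered reads, and all 8 genes passed the filter of a mean of at least 10 normalized counts.

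Acetylcholine reaches the cortex mainly from neurons of the basal forebrain, and it acts there on attention, arousal and plasticity. Muscarinic receptors are coupled to G proteins: M1 and M3, the products of Chrm1 and Chrm3, activate phospholipase C through Gq, while M2 and M4, the products of Chrm2 and Chrm4, inhibit adenylyl cyclase through Gi and open potassium channels. Nicotinic receptors are ion channels made of several subunits. The alpha4 and beta2 subunits (Chrna4, Chrnb2) form the common high-affinity receptor of the brain, alpha5 (Chrna5) joins it as an accessory subunit that is known from the deepest cortical layer, and alpha7 (Chrna7) forms channels on its own that pass calcium.

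The table places all 8 genes as GENCODE vM21 does on GRCm38. Chrm1 lies at chr19:8663789-8683587 (plus strand), Chrm2 at chr6:36388084-36528414 (plus), Chrm3 at chr13:9875486-10360847 (minus) and Chrm4 at chr2:91927249-91928688 (plus). Chrna4 lies at chr2:181018380-181043546 (minus), Chrna5 at chr9:54980880-55007779 (plus), Chrna7 at chr7:63098692-63212569 (minus) and Chrnb2 at chr3:89746195-89764632 (minus). The annotated model of Chrm4 is 1440 bases long and begins 5060 bases after the start that RefSeq gives, so reads from the stretch between are outside that model. Up to 1014 exon bases of Chrnb2 are shared with Adar on the other strand. The library kit does not mark strand, and reads of these genes cannot be told apart there. The mean of Adar was 2123 normalized counts, and its log2 fold change was -0.21 (SE 0.0729, adjusted p = 0.129) for *R. flavefaciens* against control. For both treatments against control it was -0.20 (SE 0.0729, adjusted p = 0.188).

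The set of RefSeq (GRCm38.p6) starts used here covered 7 of the 8 genes, all but Chrm1, in 8 windows. The 250 bases before 3 of these starts are shown because Chrm4 was the one receptor gene that passed the test, while Chrnb2 and Chrna5 are subunit genes whose windows, like that of Chrm4, hold 0 annotated exon bases. Capitals mark the GC box GGGCGG, found in 32.7% of 32851 windows of the same length, and the core of the cyclic AMP response element TGACG, found in 17.8%, both searched on both strands.
Chrm4, chr2:91921939-91922188, plus strand: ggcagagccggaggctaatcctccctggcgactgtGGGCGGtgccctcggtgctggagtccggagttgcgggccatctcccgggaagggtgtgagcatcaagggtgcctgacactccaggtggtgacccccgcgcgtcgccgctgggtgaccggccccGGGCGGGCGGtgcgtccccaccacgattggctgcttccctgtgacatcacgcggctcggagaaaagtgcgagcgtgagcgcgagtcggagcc
Chrnb2, chr3:89764633-89764882, minus strand: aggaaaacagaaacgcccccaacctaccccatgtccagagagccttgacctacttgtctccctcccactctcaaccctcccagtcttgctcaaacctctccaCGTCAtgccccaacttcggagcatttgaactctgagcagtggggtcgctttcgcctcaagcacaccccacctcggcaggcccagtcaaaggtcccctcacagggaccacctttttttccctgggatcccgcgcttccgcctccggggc
Chrna5, chr9:54980630-54980879, plus strand: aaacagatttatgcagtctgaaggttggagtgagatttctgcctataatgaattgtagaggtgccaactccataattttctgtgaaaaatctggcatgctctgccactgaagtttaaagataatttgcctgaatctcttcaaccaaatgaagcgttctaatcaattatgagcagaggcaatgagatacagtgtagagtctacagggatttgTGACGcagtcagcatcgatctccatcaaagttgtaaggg
The Chrm4 window is 70.0% G and C, beside a median of 52.4% over all windows, and holds 3 GC boxes, of which 2 overlap. The Chrnb2 window (59.6% G and C) and the Chrna5 window (40.0%) hold no GC box and 1 TGACG each. Of the windows not shown, that of Chrna4 has 3 GC boxes, those of Chrm2 and Chrna7 have 1 each, a window at a later start of Chrna5 has 4 and that of Chrm3 has none. The full element TGACGTCA (1.55% of windows) and the TATA box TATAAA (12.4%) were not in these letters in any of the 8 windows. Such matches describe the sequence and were not tested for use.

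To compare levels between genes, normalized counts were divided by the length of the longest annotated transcript. Chrm1 had the highest level per length, 469 normalized counts per kilobase (SD 45.4, n = 24 mice), and Chrna5 the lowest, 33.2 (SD 10.8). The order between them was Chrm3 (217 per kilobase, SD 22.3), Chrm4 (202, SD 36.6), Chrna4 (143, SD 23.8), Chrnb2 (129.5, SD 7.59), Chrna7 (59.95, SD 10.9) and Chrm2 (50.5, SD 5.47). Chrm1 was above Chrm3, and Chrnb2 above Chrna7, in 24 of 24 mice with no overlap of the ranges. Other neighbours overlapped: Chrm3 was above Chrm4 in 16 of 24 mice and Chrna4 above Chrnb2 in 17 of 24. With the union of all exons as the length, Chrm4 came before Chrm3 and Chrm2 before Chrna7. These places in the order depend on the gene model.

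**Figure D1:**
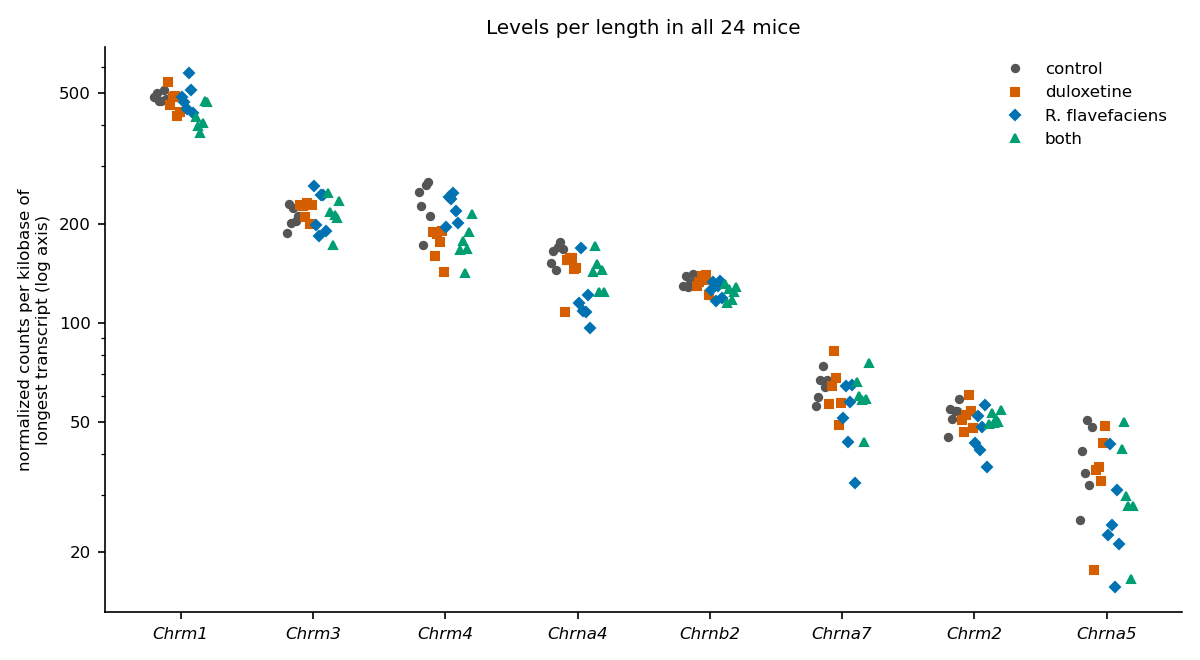
Normalized counts per kilobase of longest transcript (log axis) for the 8 receptor genes, ordered by mean, with 1 point per mouse and the 4 groups by colour and shape. Chrm1 lies apart at the top (379 to 578 per kilobase) and Chrna5 is lowest and most spread (15.7 to 50.8).

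Among the muscarinic receptors, Chrm4 was lower in mice given duloxetine, with or without the bacterium. Its normalized counts were 248, 343 and 386 (lowest, median and highest of 6 mice) in controls and 205, 261 and 274 with duloxetine. They were 281, 330.2 and 358 with *R. flavefaciens* and 204, 249 and 309.7 with both treatments. All 6 duloxetine mice were below the control mean of 333.7 (SD 52.3), 5 of 6 controls were above every duloxetine mouse, and 5 of 6 mice given both were below every mouse given the bacterium alone. The ranges overlapped in each of these pairs, through 1 low control in the first and 1 high mouse given both in the second. Averaged over the bacterium, Chrm4 fell by 0.38 on the log2 scale with duloxetine (SE 0.0728, 95% interval -0.53 to -0.23, or -23.0%), with an adjusted p of 0.0123 in limma. It was the only receptor gene of the 8 called in that comparison, in which 1.03% of 14974 genes were called. Its rank by p was 23.

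The separate comparisons of Chrm4 gave differences of like size that did not pass the adjusted threshold in the main limma fit. DESeq2 over the 4 groups called Chrm4 for both treatments against control and against *R. flavefaciens*. In these it called 1.68% and 4.52% of the genes with an adjusted p. DESeq2 on only the groups compared called Chrm4 for duloxetine against control (adjusted p = 0.0336), where it called 0.279%. Of 39 alternatives, 5 passed for both treatments against control and 6 for both against *R. flavefaciens*. Duloxetine against control gave -0.40 (SE 0.103, adjusted p = 0.907) and ranked 8 of all genes, in a comparison where 0% were called by limma. Both treatments against control gave -0.39 (SE 0.103, adjusted p = 0.0991), and the adjusted p was 0.0398 without control mouse 2_2 and 0.0337 without mouse 12_4 of the combined group, where 0.147% and 1.03% of all genes were called. Both treatments against *R. flavefaciens* gave -0.35 (SE 0.103, adjusted p = 0.0631), with 0.0437 without mouse 2_2 and 0.0315 without 12_4, where 1.84% and 3.17% of all genes were called. *R. flavefaciens* against control gave -0.04 (95% interval -0.25 to 0.18), and the interaction of the treatments was 0.05 (95% interval -0.25 to 0.35).

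Library depth moved with duloxetine. The median depth was 13591497 reads in controls and 13943370 with *R. flavefaciens*, against 14536037 with duloxetine and 14621655 with both. By an exact permutation test of the means, two-sided, the difference from control had p = 0.00433 for duloxetine (n = 6 and 6), 0.00433 for both treatments and 0.738 for *R. flavefaciens*. With depth as a covariate, chosen after the data were seen, the Chrm4 difference with duloxetine was -0.37 and its adjusted p 0.0656, past the threshold no longer. M4 is abundant in the striatum, which lies close to the punched region, so striatal markers were set beside Chrm4. The summed level of 9 striatal markers, of which Pde10a was the most abundant and none was at 0, had a median of 3073 in controls, 3045 with duloxetine, 2878 with *R. flavefaciens* and 2999.7 with both. Mouse 8_4 of the *R. flavefaciens* group (8279) and mouse 11_4 of the combined group (5176) stood apart. Over 24 mice, centred on group means, Chrm4 and the mean log2 striatal marker level had a Pearson r of -0.09 and a Spearman rho of -0.11, and r was 0.01 without those mice. Without mice 8_4 and 11_4 the Chrm4 difference with duloxetine was -0.34 (adjusted p = 0.0246), and with the striatal marker level as a covariate it was -0.38 (adjusted p = 0.0114). Microglial markers were set beside Chrm4 as well, and their summed levels overlapped between all groups. The summed level of 5 of them, of which Csf1r was the most abundant and none was at 0, was 2999, 3241 and 3410 (lowest, median and highest) in controls, 3125, 3699 and 3956 with duloxetine, 3267, 3584 and 3992 with *R. flavefaciens* and 3052, 3691 and 4517 with both. For duloxetine against control 5 of 5 had a log2 fold change above 0 (median 0.19), with 4 at an unadjusted p under 0.05, beside 3.83% of all genes, and 0 called by limma, edgeR or DESeq2. For both treatments against control 5 of 5 were above 0 (median 0.20), with 4 under 0.05, beside 16.8% of all genes. There limma and edgeR called 0 and DESeq2 called C1qa, where it called 1.68% of the genes with an adjusted p. Averaged over the bacterium the median was 0.09, with 2 of 5 under 0.05, beside 14.9% of all genes. The part of the microglial markers in the Chrm4 difference was not tested.

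**Figure D2:**
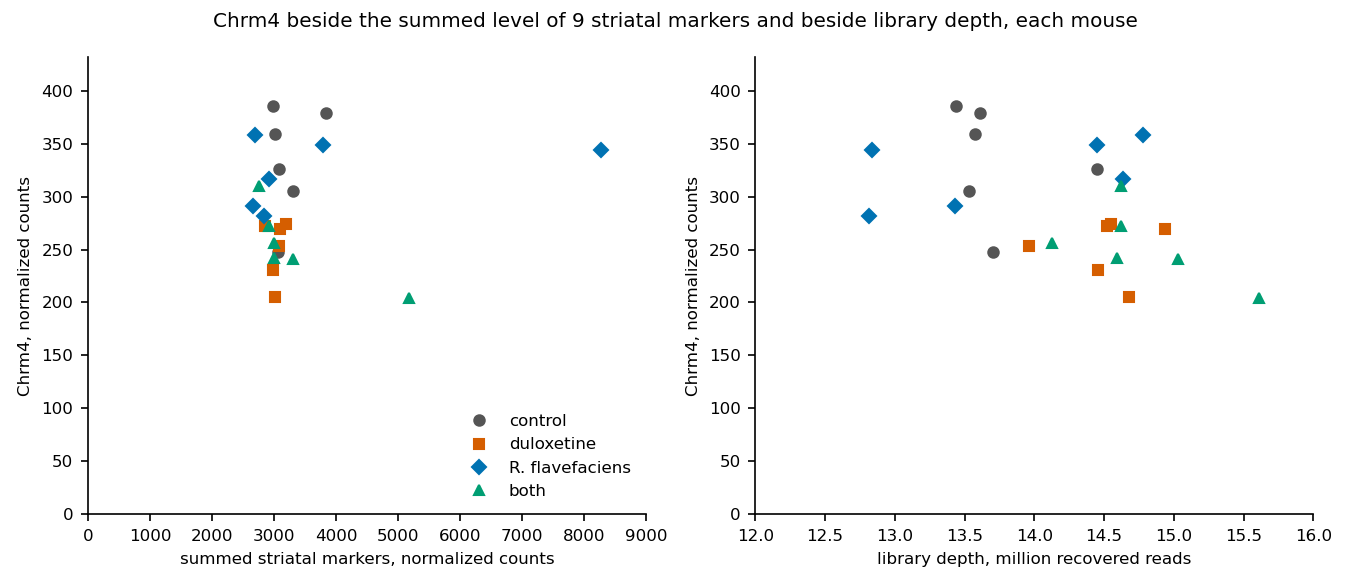
Chrm4 in normalized counts (vertical axis) beside the summed level of 9 striatal markers in normalized counts (left) and beside library depth, in recovered reads scaled as the axis states (right), with 1 point per mouse and the groups by colour and shape. The mouse at 8279 striatal counts has a Chrm4 level of 344, within the range of the control mice (248 to 386), and all 4 groups overlap on the depth axis.

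Chrm1, the most abundant receptor gene per length, had its lowest values in the mice given both treatments. Its normalized counts were 2962, 3029.5 and 3199 (lowest, median and highest) in controls, 2679.96, 2966 and 3399 with duloxetine, 2726, 3011 and 3624 with *R. flavefaciens*, and 2378, 2596 and 2968 with both. Of the mice given both, 5 of 6 were below every control. The log2 fold change was -0.20 (SE 0.0656, adjusted p = 0.141) against control and -0.20 (adjusted p = 0.0973) against *R. flavefaciens*. Neither passed the threshold. The first passed with DESeq2 on the groups compared (adjusted p = 0.0201) and with the deep-layer marker covariate (0.0235), where 5.6% of the genes with an adjusted p and 1.62% of all genes were called. The second passed with quantile normalization (0.0385), with the length trend removed (0.0281) and with the striatal marker covariate (0.0303), where 2.11%, 2.77% and 4.4% were.

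Chrm2 had its lowest values with *R. flavefaciens*, at 207, 259 and 319 normalized counts, against 254, 306 and 333 in controls, 264, 292 and 343 with duloxetine and 279, 286 and 308 with both. The difference from control was -0.21 (SE 0.0854, adjusted p = 0.182), with 3 of 6 mice below every control. Chrm3 had the flattest profile of the muscarinic genes: its group means were 910.0, 958, 956 and 937 normalized counts for control, duloxetine, *R. flavefaciens* and both, and its 5 log2 differences between groups lay from -0.04 to 0.08. The 95% intervals of its 3 differences from control lay between -0.14 and 0.25.

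Of the nicotinic subunits, Chrna4 was lowest with *R. flavefaciens*. Its normalized counts were 661, 761 and 807 (lowest, median and highest) in controls, 494, 690.4 and 721 with duloxetine, 441, 512 and 770.1 with *R. flavefaciens*, and 567, 657 and 784 with both. Of the mice given the bacterium alone, 5 of 6 were below every control, and the other, mouse 8_3, was within the control range. The log2 difference from control was -0.46 (SE 0.105, 95% interval -0.68 to -0.25, or -27.5%) with an adjusted p of 0.0727, and 0 of the 8 receptor genes were called in this comparison by limma, in which 0.0267% of all genes were. The adjusted p passed the threshold without mouse 8_3 (0.014), 9_1 (0.0459) or 9_2 (0.0342), with DESeq2 on recovered reads (0.0153) and with depth as a covariate (0.0468). The share of all genes called rose in the same settings, to 2.85%, 1.6% and 4.11% without those mice, 4.86% of the genes with an adjusted p in DESeq2 and 1.35% with the covariate.

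With duloxetine added to the bacterium, Chrna4 was nearer to control. Both treatments against *R. flavefaciens* gave 0.27 (SE 0.105, adjusted p = 0.156, or 0.0313 without mouse 8_3, where 2.32% of all genes were called), and both against control gave -0.19 (adjusted p = 0.35). The interaction of the treatments was 0.45 (SE 0.149, 95% interval 0.14 to 0.75, adjusted p = 0.639), the largest among the 8 genes. Averaged over duloxetine, the bacterium gave -0.24 (adjusted p = 0.117, or 0.0407 without mouse 8_3, where 0.902% of all genes were called), in a comparison where 0.0267% of genes and 0 of the 8 receptor genes were called by limma. The Chrna4 value there ranged from -0.29 to -0.15 over the alternatives.

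Chrna5 had the fewest reads, from 39 to 124 per mouse, and the widest spread. Its normalized counts were 61.3, 92.3 and 124 (lowest, median and highest) in controls, 43.4, 87.9 and 118 with duloxetine, 38.45, 57.2 and 104 with *R. flavefaciens*, and 40.65, 70.2 and 122 with both. Of the mice given the bacterium alone, 4 of 6 were below every control, and all groups overlapped. The difference for *R. flavefaciens* against control was -0.58 (SE 0.247, 95% interval -1.09 to -0.07, adjusted p = 0.19).

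Chrna4 and Chrna5 moved across mice with genes of the deep cortical layers. The summed level of 10 deep-layer markers, of which Bcl11b was the most abundant and none was at 0, was 6598, 7278 and 7820 (lowest, median and highest) in controls, 5542, 7511 and 7898 with duloxetine, 5143, 5898 and 7966 with *R. flavefaciens*, and 5754, 6296 and 7289 with both. For *R. flavefaciens* against control, 10 of 10 of these markers had a log2 fold change below 0, with a median of -0.28 beside 0.0031 over all genes, and 0 of 10 passed the adjusted threshold in limma, edgeR or DESeq2. An unadjusted p under 0.05 was found for 4 of the 10, and over all genes 19.6% had one, 49.2% were below 0 and 0.0267% were called. Over 24 mice centred on group means, the mean log2 marker level had a Pearson r of 0.70 (rho 0.565) with Chrna4, 0.81 (rho 0.81) with Chrna5 and -0.70 (rho -0.63) with Chrm1. Leaving out the pair of mice farthest from the median (8_3 and 5_1) gave 0.46, 0.72 and -0.69. Other marker lists also varied with these genes. Chrna4 had an r of -0.61 (rho -0.50) with 8 inhibitory neuron markers, or -0.33 without mice 8_3 and 11_3. With the striatal markers r was 0.19 (rho 0.44) for Chrna4 and 0.25 (rho 0.58) for Chrna5, or 0.50 and 0.58 without mice 8_4 and 11_4. For *R. flavefaciens* against control 6 of 8 inhibitory neuron markers were above 0 (median 0.08), with 3 at an unadjusted p under 0.05. Of these 8, limma and edgeR called 0 and DESeq2 called Pvalb and Sst, where it called 4.86% of the genes with an adjusted p. In the same comparison 5 of 5 microglial markers were above 0 (median 0.18), with 3 at an unadjusted p under 0.05. Of these 5, limma and edgeR called 0 and DESeq2 called C1qa. All these values come from the same libraries, and the part of deep-layer content in the differences was not tested beyond the covariate below. In bulk tissue, fewer cells of a type and less RNA per cell cannot be told apart. With the marker level as a covariate the difference for *R. flavefaciens* against control was -0.33 (adjusted p = 0.101) in Chrna4 and -0.22 (adjusted p = 0.467) in Chrna5.

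**Figure D3:**
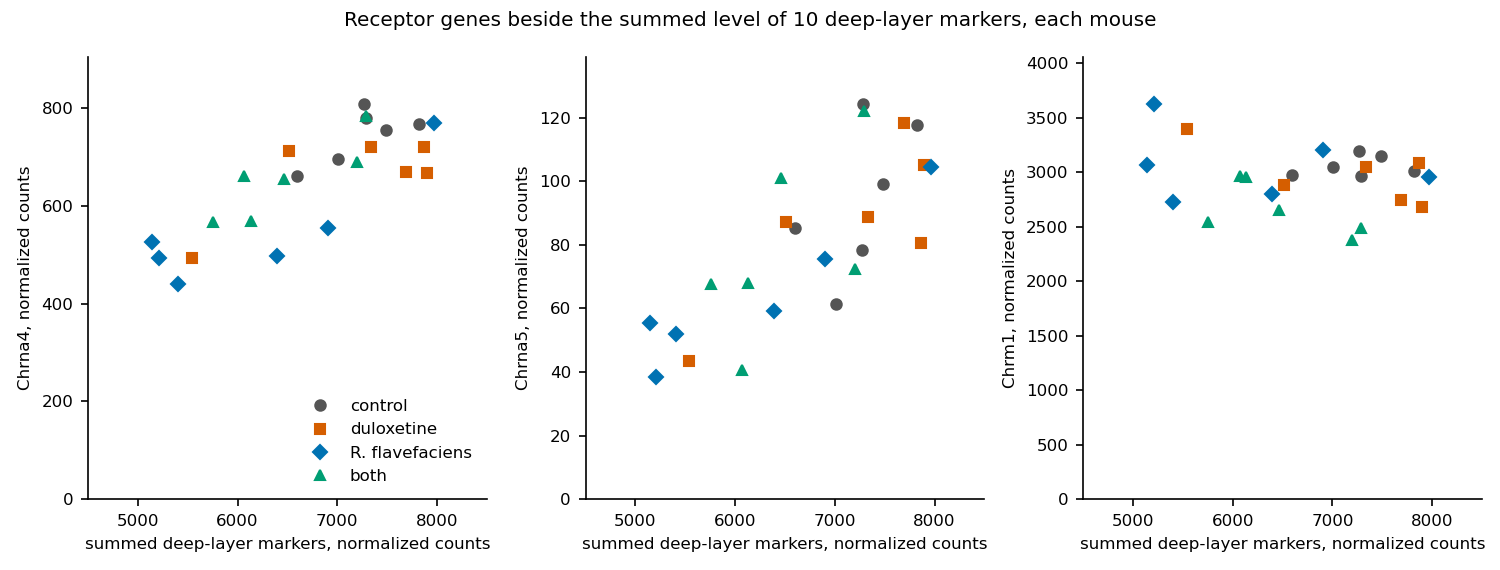
Normalized counts of Chrna4, Chrna5 and Chrm1 (vertical axes, from 0) beside the summed normalized counts of 10 deep-layer markers (horizontal axes), with 1 point per mouse and the groups by colour and shape. The duloxetine mouse with the lowest marker sum of its group (5542) has the lowest Chrna4 (494) and Chrna5 (43.4) and the highest Chrm1 (3399) of that group.

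Chrna7 had normalized counts of 157, 184 and 208 (lowest, median and highest) in controls, 137, 171 and 231 with duloxetine, 91.6, 153 and 182 with *R. flavefaciens*, and 122, 166 and 213 with both. The difference for the bacterium against control was -0.33 (SE 0.144, adjusted p = 0.196), and 3 of 6 mice were below every control. Without mouse 9_3 it was -0.21 (adjusted p = 0.547). Chrnb2 was the steadiest gene, with 824, 867 and 901 in controls, 777, 860.0 and 895 with duloxetine, 746, 817 and 859 with *R. flavefaciens*, and 734, 804 and 838 with both. Its largest log2 difference was -0.12 (SE 0.0473, adjusted p = 0.213), for both treatments against control. Over the alternatives this difference ranged from -0.19 to -0.09, with an adjusted p from 0.0544 to 0.39.

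Within each mouse, the level per length of Chrna4 was set against that of its partner Chrnb2. The ratio was 1.21 (SD 0.0577, n = 6) in controls, 1.09 (SD 0.137) with duloxetine, 0.944 (SD 0.165) with *R. flavefaciens* and 1.16 (SD 0.183) with both. The ranges of the control group (1.13 to 1.29) and the *R. flavefaciens* group (0.808 to 1.27) overlapped through 1 mouse given the bacterium. The ratio of Chrna5 to Chrna4 was 0.236 (SD 0.0539), 0.243 (SD 0.0601), 0.215 (SD 0.0405) and 0.223 (SD 0.0653) in the same order and differed by less than its spread.

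**Figure D4:**
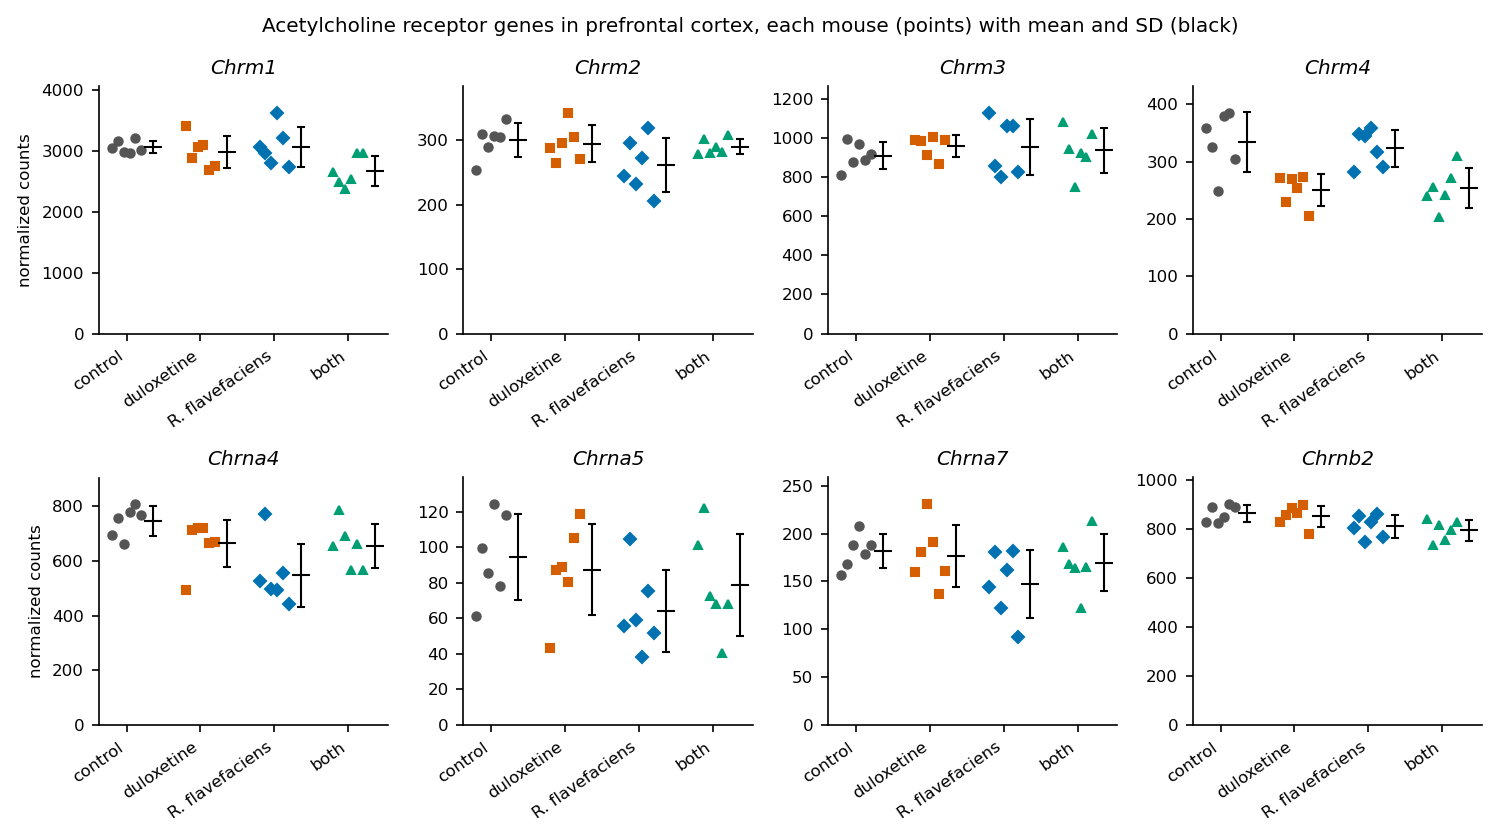
Normalized counts of the 8 receptor genes (1 panel each, axes from 0) in the 4 groups, with 1 point per mouse and the mean and SD in black. Chrm4 is lower in both groups given duloxetine (means 250.6 and 254) than in control and *R. flavefaciens* mice (333.7 and 323), and Chrna4 is lowest with *R. flavefaciens* (547).

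Counted together, most of the 8 genes had fold changes below 0 in the comparisons with control. For duloxetine against control 7 of 8 were below 0, beside 51.0% of all genes, with a median of -0.05 that ranged from -0.09 to -0.02 when 1 mouse was left out. Over all alternatives the lowest value of this median was -0.14. For *R. flavefaciens* against control 7 of 8 log2 fold changes were below 0, beside 49.2% of all genes. Their median was -0.15 beside 0.0031 over all 14974 genes, and 4 had an unadjusted p under 0.05, as did 19.6% of all genes. For both treatments against control 7 of 8 were below 0, beside 49.8% of all genes (median -0.16, or -0.26 to -0.12 over all alternatives). Of the 8, 3 had an unadjusted p under 0.05, as did 16.8% of all genes, and 0 were called in limma, where 0.1% of genes were. For both treatments against duloxetine 7 of 8 were below 0, beside 51.2% of all genes. The median was -0.05 (-0.09 to -0.03 when 1 mouse was left out), with 0 called and 0% of genes called. For both treatments against *R. flavefaciens* 4 of 8 were below 0, beside 49.5% of all genes. The median was 0.07 (0.03 to 0.12 when 1 mouse was left out), with 0 called while 2.23% of all genes were. With duloxetine averaged over the bacterium the median was 0.04 (0.01 to 0.05 when 1 mouse was left out, but -0.04 with depth as a covariate), and with the bacterium averaged over duloxetine it was -0.10. The interaction had a median of 0.12 (0.07 to 0.17 when 1 mouse was left out), with 0 receptor genes and 0% of genes called. Where limma called 0 receptor genes, edgeR on recovered reads also called 0, while DESeq2 over the 4 groups called more genes in most of these comparisons. It called 1 receptor gene (Chrna4) for *R. flavefaciens* against control and for its average, where 4.86% and 6.73% of the genes with an adjusted p were called. It called 1 (Chrm4) for both treatments against control and against *R. flavefaciens*, where 1.68% and 4.52% were. The comparisons with control share the control mice.

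**Figure D5:**
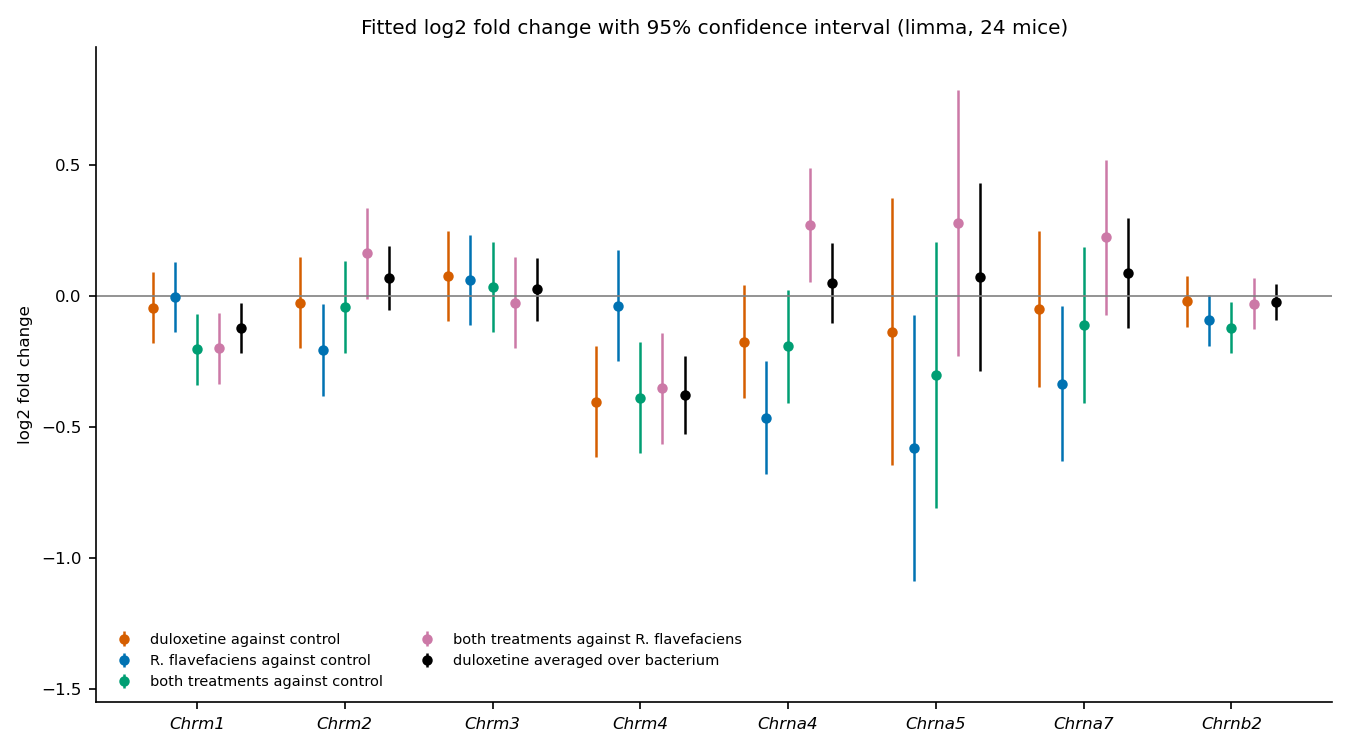
Fitted log2 fold changes (points) with 95% confidence intervals (lines) for the 8 receptor genes in 5 comparisons. Chrm4 lies between -0.40 and -0.35 in the 4 comparisons that add duloxetine and at -0.04 for the bacterium alone, and Chrna5 has the widest intervals.

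The spread between mice of 1 group, pooled over groups as a coefficient of variation, was 5.05% for Chrnb2, 8.46% for Chrm1, 10.5% for Chrm2, 10.7% for Chrm3, 12.8% for Chrm4, 14.4% for Chrna4, 18.2% for Chrna7 and 32.1% for Chrna5. Counting error alone would give 3.46% for Chrnb2 and 11.1% for Chrna5. For each gene the spread was larger than counting error, by 1.46 times for Chrnb2 up to 4.6 times for Chrm1.

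Across the 24 mice, centred on group means, Chrna4 and Chrna5 varied most alike of the 28 pairs by Pearson r (0.67, Spearman rho 0.58), followed by Chrm2 and Chrna7 (r 0.635, rho 0.581). Chrm1 and Chrna5 varied in opposite directions (r -0.576, rho -0.449), and Chrm4 and Chrna4 had an r of 0.07 (rho 0.03). Among 14973 other genes, the most alike were Epha4 (r 0.931), Rgs4 (0.888), a regulator of G protein signalling, and Slc39a10 (0.886) for Chrm1. For Chrm2 they were E330009J07Rik (0.867), Rmnd5a (0.846) and Fut9 (0.819), and for Chrm3 Pcdh7 (0.898), Osbpl1a (0.88) and the synaptic vesicle fusion gene Snap25 (0.88). Chrm4 had the weakest likeness, with Siah2 (0.755), the clock gene Cry2 (0.755) and Edc3 (0.751). Chrna4 went with Cntnap4 (0.889), Sema5a (0.885) and Spon1 (0.854), and Chrna5 with Nxph3 (0.804), Lrrc55 (0.799) and again Sema5a (0.787). Chrna7 was most like Stxbp5 (0.912), Clasp1 (0.892) and Tmem245 (0.889), and Chrnb2 was like Sap130 (0.823) and Aggf1 (0.801). These are the highest of many correlations in libraries that share depth and tissue composition, and are given as a description.

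Other receptor genes of the family were scarce. Chrm5 and 7 further nicotinic subunit genes were not among the genes of the table. Chrna1, Chrna3, Chrnb1 and Chrnb3 had means from 14.1 to 25.8 normalized counts, and Chrna2 (8.36) was under the filter. Of the 8 nicotinic subunit genes tested 0 were called in limma in any of the 8 comparisons, with 3 of 8 at an unadjusted p under 0.05 for *R. flavefaciens* against control, beside 19.6% of all genes, of which limma called 0.0267% (among the subunit genes edgeR called 0 and DESeq2 1, Chrna4).

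The genes that make, move and break down acetylcholine gave no call. Chat and Slc18a3, which make and load the transmitter in cholinergic neurons, were not among the genes of the table, and the choline transporter Slc5a7 had a mean of 17.8 normalized counts. Its log2 difference from control was 0.54 (SE 0.23, adjusted p = 0.19) with *R. flavefaciens* and 0.48 (adjusted p = 0.293) with both treatments, and it was 0.36 (adjusted p = 0.24) for the bacterium averaged over duloxetine, on the other side of 0 from Chrna4 and Chrna5. In the table this leaves Slc5a7 as the only measured marker out of 6 for cholinergic neurons. Acetylcholinesterase, Ache, had group means of 764, 783, 748 and 762 for control, duloxetine, *R. flavefaciens* and both. Of 8 genes tested, of which the choline transporter-like gene Slc44a1 was the most abundant (861.5), 0 were called, and the smallest p was that of Bche, butyrylcholinesterase, at 0.59 (SE 0.198, adjusted p = 0.102) for both treatments against *R. flavefaciens*. Of the 8 measured chaperones and Ly6 proteins that assemble or modulate nicotinic receptors 0 were called. Lynx1, which binds nicotinic receptors and dampens them, was the most abundant at 5139 normalized counts, and Lypd1 had the smallest p (-0.23, SE 0.0742, adjusted p = 0.0878, for both treatments against *R. flavefaciens*).

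Downstream of the muscarinic receptors 1 gene, Kcnj9, was called by limma, in the comparison in which 2.23% of all genes were. DESeq2 called the same gene there and for duloxetine averaged over the bacterium. In these comparisons DESeq2 called 4.52% and 2.28% of the genes with an adjusted p. Kcnj9, a subunit of the potassium channels that Gi-coupled receptors open, had 2307, 2401 and 2677 normalized counts (lowest, median and highest) in controls, 2256, 2371 and 2423 with duloxetine, 2379, 2525 and 2802 with *R. flavefaciens* and 2179, 2215 and 2410.1 with both. It fell by 0.17 on the log2 scale (SE 0.0432, adjusted p = 0.0415) for both treatments against *R. flavefaciens*, and the ranges of these groups overlapped. The call was lost in 13 of 39 alternatives, with fold changes from -0.19 to -0.14. These were the fit of only these groups (adjusted p = 0.193, with 0 of 14974 genes called), depth (0.0505) and the deep-layer markers (0.0554) as covariates, DESeq2 on these groups alone (0.0637), and the fits without control mouse 1_1, *R. flavefaciens* mouse 7_2, 8_3, 9_1 or 9_2, or combined mouse 10_2, 11_3, 11_4 or 12_2 (limma adjusted p from 0.0502 to 0.0987). The other 12 Gi genes tested, of which the adenylyl cyclase gene Adcy1 was the most abundant at 22620 normalized counts, were not called in any comparison. Of 14 genes of Gq signalling 0 were called. For *R. flavefaciens* against control 10 of these 14 were below 0, beside 49.2% of all genes, with a median of -0.10 beside 0.0031, 7 had an unadjusted p under 0.05, beside 19.6% of all genes, and the smallest p was that of the phospholipase gene Plcb4 (-0.25, SE 0.0809, adjusted p = 0.103). Itpr1, the calcium release channel, was the most abundant of them at 16780 normalized counts. The M-current channels, which muscarinic receptors close, gave 0 calls among 4 genes, with the smallest p at Kcnq3 (-0.20, SE 0.0658, adjusted p = 0.128, bacterium averaged over duloxetine). The 7 measured receptor kinases and arrestins also gave 0 calls, with the highest mean at Arrb1 (5620) and the smallest p at Grk6 (-0.11, adjusted p = 0.175, both treatments against *R. flavefaciens*). Over these 6 pathway lists limma called 1 of 432 pairs of gene and comparison (0.231%, beside 0.427% of all such pairs), with 54 (12.5%) at an unadjusted p under 0.05, beside 13.3% of all, while edgeR called 1 and DESeq2 2 (0.463%, beside 2.04% of all pairs with an adjusted p).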

How the data were processed

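Poly(A) RNA of the punches was sequenced by the authors, 1 library per mouse, on a HiSeq 2500. The methods name GRCm38.p5 as the genome, while the submitters' processing notes list mm9, TopHat2 2.1.0, Bowtie2 2.2.6 and DESeq2 1.18.1. Gene positions in the table equal those of GENCODE vM21 (GRCm38) for 14285 of 15438 IDs. The signal values that the authors deposited are gene counts divided by a size factor per mouse. Of 370875 non-zero values 99.997% were whole multiples of 1 step per mouse within 0.0051, which gave back the reads, and 0 columns were left unmapped. All 60 pairs of mice within a group differed beyond counting noise, with a chi-square of 2.11 to 26.8 times its degrees of freedom, and each mouse was counted once.

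Two-sided tests were run with limma 3.58.1 (R 4.3.3, trended prior) after adding 1 and taking log2. Genes averaging under 10 were left out, which kept 14974. All 4 groups entered 1 fit, from which 8 comparisons were taken. A fold change on this scale is slightly too small for low genes. Benjamini-Hochberg adjustment ran over all genes of a comparison, with a threshold of 0.05. DESeq2 1.42.0 and edgeR 4.0.16 on the recovered reads were alternatives. The fits were tested on simulated data. Python 3.11.15, scipy 1.17.1 and matplotlib 3.10.9 served for the rest. The genes named are the 8 receptors, the 3 most correlated genes of each, and from each list the called genes, the gene with the highest mean and that with the smallest p. Some genes that this rule names are not reported here. Genes beyond these were chosen after their values were seen. The receptors and the lists were chosen with earlier results of these data known. The meaning of the first number in the mouse labels is not given. The p-values set group differences against the spread between mice counted as independent, and the mice were group housed. The first label numbers do not recur between groups, so treatment and what they mark cannot be told apart.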

Additional observations from a re-analysis of the deposited data

Results flagged for a closer look

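Of 112 groups of 6 values checked (each receptor gene and each summed gene list in each treatment group), 9 had 1 mouse far from the other 5, with a gap to the nearest mouse over 0.625 of the whole range. Chance flags about 1 in 20 such groups. For the receptor genes this was Chrna4 in mouse 5_1 of the duloxetine group (493.79 normalized counts, the next mouse at 666) and Chrna4 in mouse 8_3 of the *R. flavefaciens* group (770.13, the next at 555). The other 7 were summed marker levels. Mouse 8_4 of the *R. flavefaciens* group was the highest of its group in markers of striatum (8278.5, the next at 3787), of choroid plexus (791.04, the next at 108) and of blood (988.27, the next at 627). Mouse 11_4 of the combined group had 5176.01 in markers of striatum (the next at 3313), and control mouse 2_3 had 3843.21 (the next at 3302). In the duloxetine group mouse 5_3 had 151.84 in markers of choroid plexus (the next at 63.1) and mouse 6_3 had 983.59 in markers of blood (the next at 482).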

How the results depend on the processing

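Of 40 alternatives, 24 left out 1 mouse each and 16 were of other kinds, 4 of them chosen after the data were seen. The counts of called receptor genes for the 5 comparisons between groups were recomputed under all 40. Those for the averaged effects and the interaction were recomputed under 38, and the medians under 39 and 37. None of 20 followed pairs of gene and comparison changed sign. The median over the receptor genes ranged over the alternatives from -0.14 to -0.02 for duloxetine against control and from -0.26 to -0.12 for both treatments against control. It ranged from 0.01 to 0.12 for both treatments against *R. flavefaciens*, and for duloxetine averaged over the bacterium it was -0.04 with depth as a covariate. Chrm4 was called with duloxetine averaged over the bacterium in every alternative but depth as a covariate. With that covariate 0 receptor genes were called, while 0.641% of all genes were. The fold change of Chrm4 ranged from -0.42 to -0.34. For duloxetine against control 1 receptor gene (Chrm4) was called by DESeq2 with only the groups compared. For *R. flavefaciens* against control 1 gene (Chrna4) was called with the random block for the first label number, where 1.48% of all genes were. The correlation within a first label number was -0.0451, below 0, so the block fit made no allowance for likeness between such mice. DESeq2 called Chrna4 on all 4 groups and on the groups compared (there 0.496% of the genes with an adjusted p). Depth as a covariate also gave 1, as did an adjusted p under 0.1, where 3.87% of all genes were called. Leaving out 1 mouse gave 0 to 1. For the bacterium averaged over duloxetine 1 gene (Chrna4) was called by DESeq2, and 0 to 1 when 1 mouse was left out. For both treatments against control DESeq2 called 1 gene with 4 groups and 2 (Chrm1 and Chrm4) with the groups compared. A threshold of 0.1 gave 1, where 0.841% of all genes were called. The deep-layer marker covariate gave 2, and leaving out 1 mouse gave 0 to 1. For both treatments against *R. flavefaciens* 1 gene was called with quantile normalization, the length trend removed, the random block, and DESeq2 in either form. The block called 3.56% of all genes, and DESeq2 on the groups compared called 1.51% of the genes with an adjusted p. A threshold of 0.1, where 5.62% of all genes were called, and the striatal marker covariate each gave 2. Leaving out 1 mouse gave 0 to 1. The cause of these changes was not tested. The calls of all genes moved much more: for *R. flavefaciens* against control limma called 4, edgeR 4 and DESeq2 488. No paired analysis was possible because the first label numbers do not recur between groups. Counting error was 11.1% for Chrna5, the receptor gene with the fewest reads, beside a spread between mice of 32.1%.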

Other observations

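The other cell types were read from marker lists, counted here together with the striatal and deep-layer lists used above. Over all 12 marker lists limma called 0 of 520 pairs of gene and comparison, and 80 (15.4%) had an unadjusted p under 0.05, beside 13.3% of all pairs of gene and comparison, while edgeR called 0 and DESeq2 11 (2.12%, beside 2.04% of all pairs with an adjusted p). With *R. flavefaciens* against control the inhibitory neuron gene Sst was at 0.34 (SE 0.0868, adjusted p = 0.0727) and the microglial gene C1qa at 0.34 (SE 0.0911, adjusted p = 0.0748). The striatal gene Tac1 was at 0.42 (adjusted p = 0.0965), in a list with 6 of 9 above 0, 3 below and a median of 0.24. The choroid plexus gene Ttr was at 3.34 (SE 1.1, adjusted p = 0.107), or 2.32 without mouse 8_4. Ttr was near the floor in controls (0 to 3.08 normalized counts) and reached 68.57 in duloxetine mouse 5_3. These adjusted p are those of limma. DESeq2 called Sst, Pvalb, C1qa and Tac1 in this comparison, where it called 4.86% of the genes with an adjusted p. The 5 blood markers, with the highest mean at Hbb-bs, were all above 0 for *R. flavefaciens* against control (median 0.75, 4 at an unadjusted p under 0.05, as were 19.6% of all genes) and for both treatments against control (median 0.78, 5 under 0.05, as were 16.8% of all genes), with 0 called by limma. With the bacterium averaged over duloxetine, the deep-layer gene Fezf2 was at -0.22 (adjusted p = 0.111), the excitatory neuron gene Tbr1 at -0.15 (adjusted p = 0.12), the endothelial gene Slco1c1 at 0.14 (adjusted p = 0.12) and the haemoglobin gene Hba-a2 at 0.56 (adjusted p = 0.129). There DESeq2 called Fezf2, Tbr1, Slco1c1, Pvalb, Sst and C1qa, while it called 6.73% of the genes with an adjusted p. Against control, both treatments gave 0.15 for the upper-layer gene Cux1 (adjusted p = 0.174) and 0.22 for the astrocyte gene Gja1 (adjusted p = 0.252). The upper-layer list was split there, with 3 of 5 above 0, 2 below and a median of 0.03. Of the astrocyte list 5 of 5 were above 0 (median 0.16). The smallest p of the oligodendrocyte markers was that of Mbp (0.18, adjusted p = 0.819, *R. flavefaciens* against control), the summed level of which list ranged from 10545 to 47815 normalized counts within the combined group. Over 24 mice centred on group means that list had a Pearson r of -0.71 (rho -0.72) with Chrm1 and 0.56 (rho 0.51) with Chrna5, as a description. The most abundant markers were Camk2a, Gad1, Cux2, Bcl11b, Pde10a, Slc5a7, Slc1a3, Mbp, Csf1r, Flt1, Kl and Hbb-bs.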
